A study of Solanum lycopersicum x Solanum pennellii and Solanum lycopersicum with 7 samples.

Results

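Leaf RNA of 2 tomato introgression lines was compared over 116 genes of chromosome 3 that had lower counts in IL3-2, the line named for that chromosome. The genes were chosen by their values. They are the rows between Solyc03g005480 and Solyc03g098150 whose mean level in IL2-6 was at least 1 CPM (counts per 1000000 of the library's total) and at least 2-fold the mean level in IL3-2, with 1 or more counts in IL3-2. The borders were placed in earlier work on these same libraries by their 2-fold differences, and 32 of the 2021 rows between them are left aside by serial number. Of the 1989 rows that stayed, 905 had at least 1 CPM in IL2-6 and a count in IL3-2, and 116 of these met the ratio. The whole tables list 34725 genes. Because the ratio of the lines chose the genes, that ratio is described here and is not tested as a finding.

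Introgression lines are cultivated plants in which a stretch of one chromosome has been replaced, by crossing, with that of a wild relative. The organism label names Solanum lycopersicum crossed with Solanum pennellii, a wild species, for both lines. IL2-6 is named for chromosome 2 and IL3-2 for chromosome 3. Over the chromosome 3 segment, the name of IL3-2 thus points to wild alleles, and that of IL2-6 to a segment elsewhere. Genotypes of the 2 lines were not analysed here. Alleles of wild and cultivated tomato can differ in promoter and other regulatory sequence, which acts on the gene it lies beside, and through regulators that act on genes anywhere in the genome. Both lines were counted on the same identifiers, and how reads of wild alleles mapped was not tested. A lower count in IL3-2 may therefore not be a lower amount of RNA.

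Each line had 3 leaf libraries from plants grown in the field. The labels give IL2-6 an enhanced biomass and state no phenotype for IL3-2, and they give no age, treatment or plant number. The third line, the cultivated parent M82, has 1 library with variant records and no counts, so no level in M82 can be set beside these values. The IL3-2 libraries were the deeper ones, with totals of 28828109 to 40146308 counts against 18479252 to 21320790 for IL2-6. No pair of libraries of 1 line agreed within sampling noise (chi-square of 2.33 to 11.2 per degree of freedom), so each was counted as a replicate. In each line 1 library stood apart. For IL2-6 the value was 2.69 between replicates 1 and 3, and 8.70 and 11.2 for the pairs with replicate 2. For IL3-2 it was 2.33 between replicates 2 and 3, and 8.29 and 7.29 for the pairs with replicate 1. Whether the 3 libraries came from separate plants is not stated, so p-values cover the spread between libraries only, and this may be technical. The IL3-2 descriptions name a sequencing lane and a flow cell, those of IL2-6 name neither, and 2 library kits are mentioned without being assigned. Line and library preparation therefore cannot be told apart for any gene below. In bulk leaf, fewer cells of a type and less RNA per cell cannot be told apart either. The files pair no identifier with a name or a description, so the genes carry their identifiers, no role is given to any of them, and the leaf label was not checked against marker genes.

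The 116 genes together had summed levels of 5180, 5103 and 5130 CPM in IL2-6 replicates 1, 2 and 3 and of 1451, 1502 and 1480 CPM in IL3-2 replicates 1, 2 and 3. The libraries of a line lay close together and the lines lay far apart, as the choice of genes sets. The mean summed level was 5138 ± 38.8 CPM in IL2-6 against 1478 ± 25.4 CPM in IL3-2 (SD, n = 3 each), a ratio of 3.48. The genes took 0.514% of all counts in IL2-6 and 0.148% in IL3-2. Over the 1873 other rows of the segment, which the rule did not take, the summed level was 31065 ± 397 CPM in IL2-6 against 34353 ± 251 CPM in IL3-2 (SD, n = 3 each). The 12 genes with the highest CPM made up 65.5% of the summed level of the 116 genes in IL2-6 and 69.9% in IL3-2.

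The ratio of mean CPM, IL2-6 over IL3-2, ran from 2.00 to 4857 with a median of 4.01. It lay between 2 and 3 for 45 of the 116 genes (38.8%), between 3 and 4 for 13, between 4 and 10 for 26, between 10 and 30 for 18, between 30 and 100 for 4, and at 100 or above for 10 (8.62%). Thus 58 genes were at least 4-fold lower in IL3-2. Levels in IL2-6 ran from 1.03 to 851 CPM with a median of 10.5, and 37 genes were under 5 CPM there while 11 were at 100 CPM or above. The median ratio was 6.53 among the 37 genes under 5 CPM in IL2-6, 3.54 among the 57 genes from 5 to 50 CPM and 3.64 among the 22 genes at 50 CPM and above. Ratios of 10 or above occurred in 15, 11 and 6 genes of these classes, so large ratios were present at each level.

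**Figure D1:**
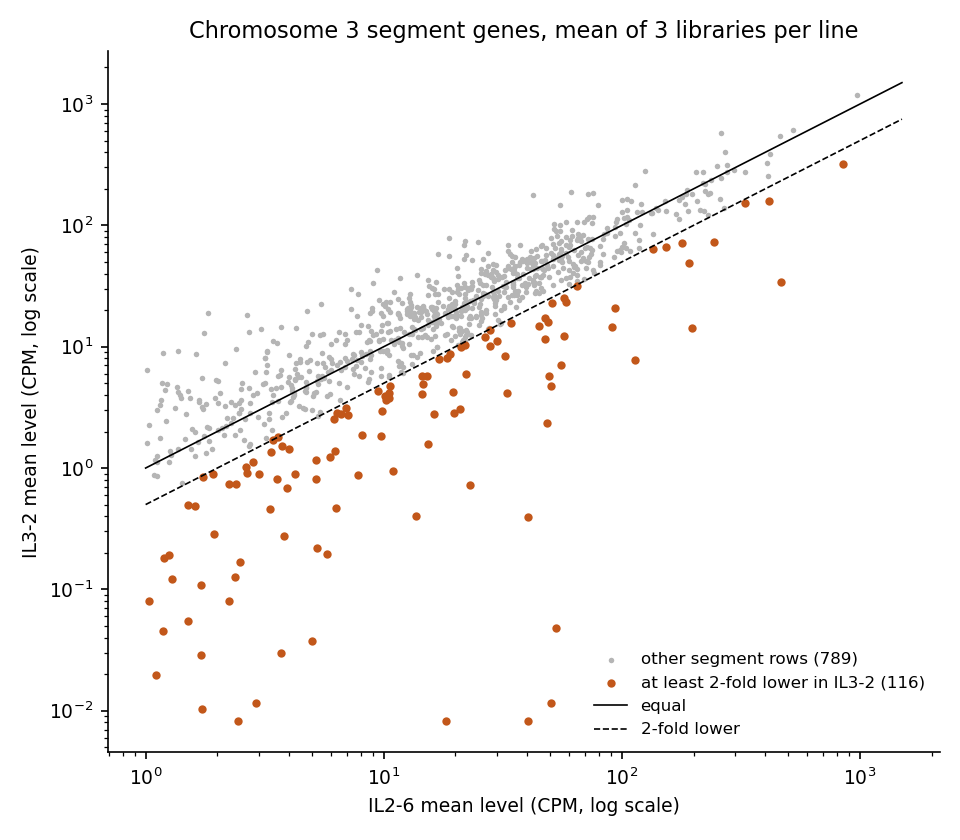
Mean level in IL2-6 (x axis) against mean level in IL3-2 (y axis), both in CPM on log scales and over 3 libraries per line, for the 905 segment rows with at least 1 CPM in IL2-6 and a count in IL3-2. The 116 chosen genes (orange) lie on or under the dashed 2-fold line by construction, and 10 of them lie at least 100-fold from equality. Most of these 10 have 5 or fewer counts over the IL3-2 libraries.

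The fit over the whole table shows the size and error of these differences. All 116 genes passed edgeR's filter on low counts. They had to differ in that contrast, since the rule used the same libraries, and all 116 were called lower in IL3-2 (edgeR, quasi-likelihood, p under 0.05 after Benjamini-Hochberg adjustment). The background was 30.4% of 20823 genes called lower, 6326 genes or 48.0% of all calls. With scaling by library totals only, 3977 genes were called lower, or 29.4% of all calls. A call with a fitted change of at least 2-fold was made for all 116 genes and for 4.89% of all genes tested. The largest edgeR adjusted p among the 116 genes was 3.14e-04. The fitted log2 fold changes, IL3-2 minus IL2-6, had a median of −2.16 with a median standard error of 0.14, and the median over all genes tested was 0.01. The standard error is derived from the test statistic and is too small for genes with few counts in IL3-2. These fitted values use TMM scaling, a correction of library totals for the makeup of the RNA, which lowers them by 0.16 on the log2 scale relative to ratios of plain CPM.

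Every IL2-6 library was above every IL3-2 library for all 116 genes. Among all rows with at least 1 CPM in IL2-6 and a count in IL3-2, that held for 23.0%. In 94 of the 116 genes the lowest IL2-6 library was also at least 2-fold above the highest IL3-2 library, and over the same rows as before that held for 2.29%. The choice of genes by a 2-fold ratio largely sets both counts. The narrowest separation was that of Solyc03g043740.2, whose lowest IL2-6 library was 1.43-fold its highest IL3-2 library. The coefficient of variation between libraries (SD over mean CPM) had a median of 7.86% in IL2-6 and 13.9% in IL3-2 over the 116 genes. Over the 789 other rows of the segment at the same IL2-6 minimum, the medians were 5.92% and 5.44%. The 116 genes together had 94300 to 110434 counts in each IL2-6 library and 41832 to 59429 in each IL3-2 library, and the part of this difference in the spread was not tested.

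The genes with the highest CPM are taken first. CPM depends on transcript length as well as on abundance, and lengths were not used here, so the order is one of counts per library and not of transcripts. Solyc03g098000.2 had the highest CPM of the 116 genes, at 854, 841 and 859 CPM in IL2-6 replicates 1, 2 and 3 and 305, 326 and 332 CPM in IL3-2. The lines were separate and the spread within each was small beside the gap. The fitted log2 difference, IL3-2 minus IL2-6, was −1.57 ± 0.05 (SE; edgeR adjusted p = 2.59e-12). This p-value and those of single genes below come from the contrast that chose the genes, so they add no support for it. It alone held 16.6% of the summed level of the 116 genes in IL2-6 and 21.7% in IL3-2. Without it the mean summed levels were 4286 and 1157 CPM, a ratio of 3.70.

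Of these 12 genes, 3 were more than 13-fold lower in IL3-2. Solyc03g031920.2 had 487, 461 and 451 CPM in IL2-6 replicates 1, 2 and 3, against 35.0, 32.4 and 36.0 CPM in IL3-2, a fitted log2 difference of −3.92 ± 0.06 (SE; edgeR adjusted p = 2.03e-15). Solyc03g033840.2 had 204, 190 and 196 CPM in IL2-6, against 14.2, 14.5 and 14.0 CPM in IL3-2, a fitted log2 difference of −3.95 ± 0.06 (SE; edgeR adjusted p = 6.72e-16). Solyc03g078490.2 had 113, 116 and 112 CPM in IL2-6, against 7.25, 8.28 and 7.92 CPM in IL3-2, a fitted log2 difference of −4.02 ± 0.07 (SE; edgeR adjusted p = 3.14e-15). In all 3 the lowest IL2-6 library was over 12-fold the highest IL3-2 library. Their ratios of mean CPM were 13.5, 13.8 and 14.5.

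The other 8 of these 12 genes had ratios of mean CPM between 2.14 and 4.54. Solyc03g093690.2 had 404, 405 and 429 CPM in IL2-6 replicates 1, 2 and 3, against 145, 170 and 163 CPM in IL3-2. Solyc03g007370.2 had 325, 326 and 334 CPM in IL2-6, against 147, 156 and 153 CPM in IL3-2. Solyc03g013240.2 had 249, 241 and 243 CPM in IL2-6, against 71.8, 73.1 and 72.8 CPM in IL3-2. In these 3 genes no IL3-2 library came near the lowest IL2-6 library, and the fitted log2 fold changes were −1.54, −1.27 and −1.91 with standard errors of 0.06, 0.05 and 0.05 (edgeR adjusted p of 2.98e-11, 2.09e-11 and 2.11e-13). Mean levels in IL2-6 and IL3-2 were 192 and 49.1 CPM for Solyc03g097670.2, 179 and 71.9 CPM for Solyc03g025450.2, and 153 and 66.3 CPM for Solyc03g006870.2. They were 135 and 63.3 CPM for Solyc03g082620.2 and 94.0 and 20.7 CPM for Solyc03g058970.2. Of these 5 genes, Solyc03g058970.2 had the largest ratio, 4.54, and Solyc03g082620.2 the smallest, 2.14.

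**Figure D2:**
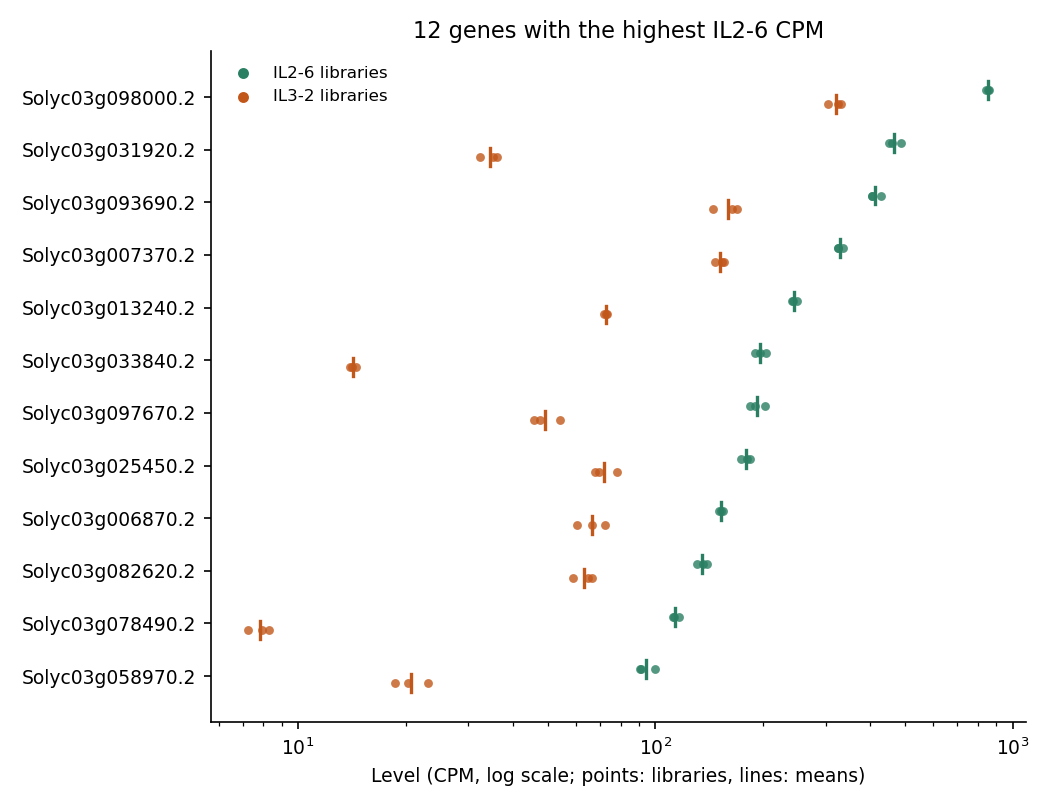
Level in CPM (x axis, log scale) of the 12 genes with the highest IL2-6 CPM among the 116, with 1 point per library and a line at the mean of each line's 3 libraries. IL2-6 (green) lies to the right of IL3-2 (orange) in every gene, and the gap is widest in Solyc03g031920.2, Solyc03g033840.2 and Solyc03g078490.2, whose IL3-2 levels lie between 7.25 and 36.0 CPM.

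At the other end stand genes with almost no counts in IL3-2. Whether reads of wild alleles of these genes could be mapped and counted was not tested. Over the 3 IL3-2 libraries together, 9 of the 116 genes had 1 to 3 counts, 16 had 4 to 30, 19 had 31 to 100 and 72 had more than 100. In 11 genes at least 1 IL3-2 library had no count, while no gene had fewer than 15 counts in an IL2-6 library. Another 15 rows of the segment reached 1 CPM in IL2-6 while all IL3-2 libraries were at 0. The rule leaves those out, and their IL2-6 levels ran from 1.03 to 45.8 CPM with a median of 5.37.

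Among genes with at least 5 CPM in IL2-6, the 10 with the largest ratios include 3 with 1 count in IL3-2. Solyc03g078630.2 had 830, 807 and 801 counts in IL2-6 replicates 1, 2 and 3 and 0, 0 and 1 in IL3-2. Solyc03g013160.2 had 1146, 977 and 922 counts in IL2-6 and 1, 0 and 0 in IL3-2. Solyc03g059480.1 had 417, 326 and 362 counts in IL2-6 and 0, 0 and 1 in IL3-2. All the IL2-6 libraries held at least 326 counts of each gene, although the IL3-2 libraries were deeper. The pooled ratio per library total was 4072 for Solyc03g078630.2 (95% exact binomial interval 730 to 160890). It was 5085 for Solyc03g013160.2 (912 to 200930) and 1845 for Solyc03g059480.1 (331 to 72956). The intervals cover counting error only and are wide because each ratio rests on 1 count. Without the library that holds it, the IL3-2 side is at 0.

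A further 2 of the 10 genes had 4 or 5 counts in IL3-2. Solyc03g034200.2 had 1162, 876 and 1172 counts in IL2-6 and 2, 0 and 3 in IL3-2, a pooled ratio of 1072 (95% exact binomial interval 459 to 3304). Solyc03g033260.2 had 103, 94 and 107 counts in IL2-6 and 0, 2 and 2 in IL3-2, a pooled ratio of 127 (49.1 to 469). In both genes 1 IL3-2 library had no count.

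The remaining 5 of the 10 genes had counts in every IL3-2 library. Solyc03g044740.2 had 40.7, 40.6 and 39.9 CPM in IL2-6 replicates 1, 2 and 3, against 0.382, 0.525 and 0.274 CPM in IL3-2. Its fitted log2 difference was −6.85 (edgeR adjusted p = 6.20e-15), on 39 counts over the IL3-2 libraries. Solyc03g078150.2 had 23.8, 22.4 and 23.0 CPM in IL2-6, against 0.867, 0.680 and 0.648 CPM in IL3-2. Its fitted log2 difference was −5.15 (edgeR adjusted p = 5.89e-14), on 73 IL3-2 counts. Solyc03g044820.2 had 12.9, 13.3 and 14.9 CPM in IL2-6, against 0.173, 0.525 and 0.498 CPM in IL3-2. Its fitted log2 difference was −5.20 (edgeR adjusted p = 1.32e-11), on 42 IL3-2 counts. IL3-2 replicate 1 was the lowest library of Solyc03g044820.2, with 5 counts against 17 and 20 in the others. Solyc03g096220.2 and Solyc03g071750.2 had mean levels of 5.80 and 5.26 CPM in IL2-6 and 0.197 and 0.220 CPM in IL3-2, with 4 to 9 counts in each IL3-2 library.

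**Figure D3:**
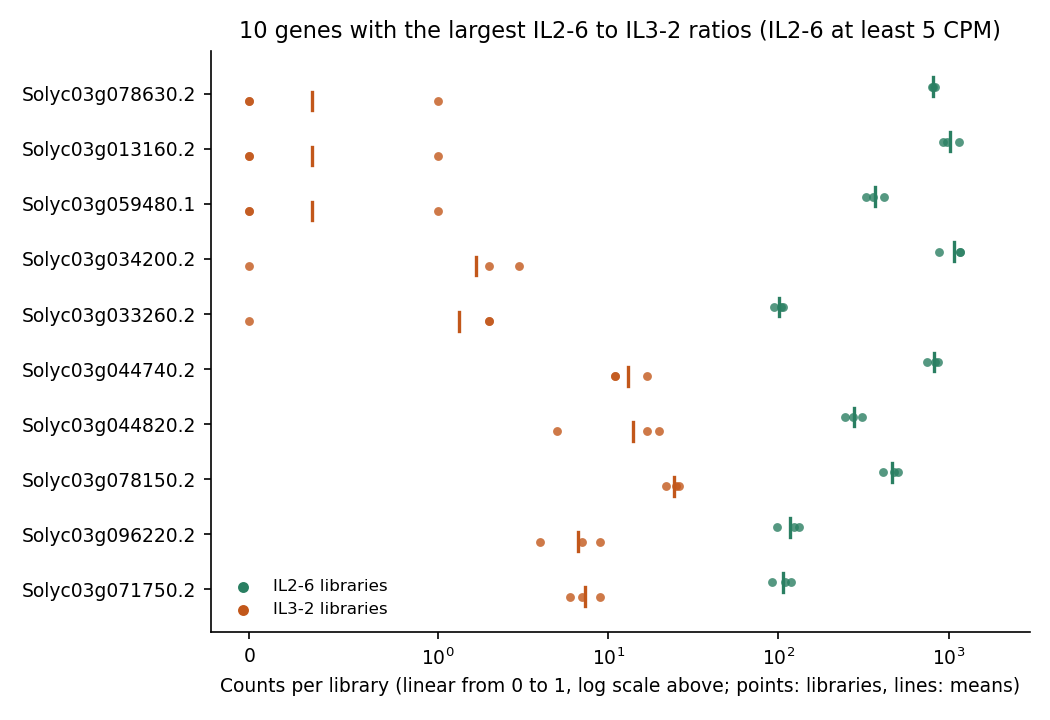
Counts per library (x axis, linear from 0 to 1 and log scale above) of the 10 genes with the largest ratios among those with at least 5 CPM in IL2-6, with 1 point per library and a line at each line's mean. The upper 3 genes have 1 count over the IL3-2 libraries (orange) and 326 to 1146 counts in each IL2-6 library (green).

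Near the 2-fold limit the choice of genes is close. The genes just inside it were Solyc03g093840.1, Solyc03g083730.1 and Solyc03g063060.2, with ratios of mean CPM of 2.00, 2.01 and 2.03. The rows just outside it were Solyc03g097550.2, Solyc03g093880.2 and Solyc03g097630.2, with ratios of 1.997, 1.996 and 1.994. Solyc03g063060.2 had 28.8, 28.3 and 26.8 CPM in IL2-6, against 13.6, 13.9 and 13.8 CPM in IL3-2, while Solyc03g097550.2 outside had 32.4, 27.5 and 33.6 CPM in IL2-6 and 13.2, 17.9 and 15.8 CPM in IL3-2. In both rows the lines did not overlap, but the lowest IL2-6 library was 1.93-fold the highest IL3-2 library in Solyc03g063060.2 and 1.54-fold in Solyc03g097550.2. With CPM scaled by TMM, 148 rows met the rule, and these held all of the 116.

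The ratio of some genes rested on 1 library. For 14 of the 116 genes, leaving out 1 library moved the ratio by over 1.5 times or left IL3-2 without counts, and 13 of the 14 had at most 30 counts over the IL3-2 libraries. In 2 of them, named after their values were seen, IL2-6 replicate 2 stood above the other libraries. That library also stood apart from the others of its line in the chi-square comparison above. Solyc03g013600.1 had 1.08, 3.90 and 0.862 CPM in IL2-6 replicates 1, 2 and 3, against 0.312, 0.278 and 0.274 CPM in IL3-2. Without replicate 2 its IL2-6 mean was 0.971 CPM, under the minimum of the rule, and its ratio fell from 6.75 to 3.37. Solyc03g063480.2 had 4.83, 14.2 and 4.46 CPM in IL2-6, against 0.624, 0.804 and 1.20 CPM in IL3-2, and without replicate 2 its ratio fell from 8.94 to 5.31. Both genes still had every IL2-6 library above every IL3-2 library.

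Position was read from the identifiers, in which the chromosome number is followed by a serial number that grows along the chromosome. The genes were spread over the segment. In 41 bins of successive listed rows, 50 rows each except the last with 21, the median was 3 genes and the most was 7, and 2 bins held none. Rows at least 2-fold higher in IL3-2, by the same rule turned round, lay among them. There were 177 of these rows, and 38 of the 41 bins held both kinds. The 116 genes outnumbered the higher rows in 10 bins, a balance that depends on the scaling of the libraries. The bins with 7 genes ran from Solyc03g025970.2 to Solyc03g031470.2, with 38 rows at the IL2-6 minimum, and from Solyc03g058670.1 to Solyc03g059180.2, with 16 such rows. The longest stretch without one of the 116 genes ran between Solyc03g053040.1 and Solyc03g058910.2. It held 81 listed rows, of which 13 had at least 1 CPM in IL2-6 and a count in IL3-2 and 0 were at least 2-fold higher in IL3-2.

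**Figure D4:**
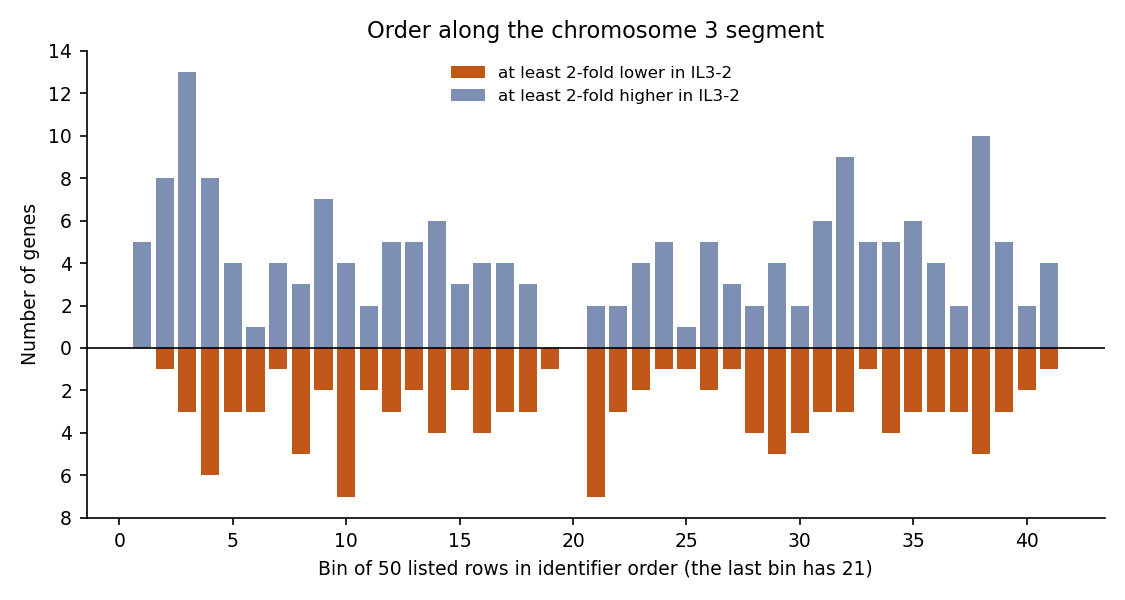
Number of genes (y axis) in each bin of 50 listed rows, in identifier order along the segment (x axis, the last bin has 21 rows). Bars below 0 count the 116 genes at least 2-fold lower in IL3-2 and bars above 0 the 177 rows at least 2-fold higher, and 38 of 41 bins hold both. Both use CPM per library total.

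Successive genes of the 116 lay a median of 12 listed rows apart. Of the 116 genes, 88 had none of the others directly beside them, and 28 lay in 13 runs of adjacent rows, 11 runs of 2 genes and 2 runs of 3. Over the 232 sides of the 116 genes, the next row was within 2-fold in 93 cases (40.1%), under the IL2-6 minimum or without an IL3-2 count in 87 (37.5%), another of the 116 in 30 (12.9%) and at least 2-fold higher in IL3-2 in 21 (9.05%). The last case was a row that was also at least 2-fold lower in IL3-2 but set aside by serial number, so it does not count in the runs.

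The runs of 3 are Solyc03g058930.2, Solyc03g058940.2 and Solyc03g058950.2, with ratios of 3.31, 2.49 and 3.54, and Solyc03g096760.1, Solyc03g096770.1 and Solyc03g096780.1, with ratios of 11.6, 2.82 and 4.09. In 2 of the 13 runs the highest ratio was at least 3 times the lowest. One is the run just named, and the other joins Solyc03g044740.2, with a ratio of 103, and Solyc03g044790.2, with a ratio of 6.95. In the remaining 11 runs the ratios lay closer together. Adjacent rows can overlap or share sequence, which the files do not show, so genes of a run may not be separate observations. The strand setting of the counting was not stated, and the library kits mentioned include a stranded and an unstranded kit.

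Opposite differences stood side by side at 21 boundaries. The one with the largest ratio in the neighbouring row, chosen after its values were seen, involves Solyc03g034370.1, whose level was 0.277 ± 0.260 CPM in IL2-6 but 226 ± 5.87 CPM in IL3-2 (mean ± SD, n = 3 each). It lies between 2 of the 116 genes. On one side, Solyc03g034360.2 fell from 14.6 ± 1.61 CPM in IL2-6 to 4.92 ± 0.185 CPM in IL3-2, and on the other, Solyc03g034380.1 fell from 1.11 ± 0.445 to 0.0199 ± 0.0179 CPM (mean ± SD, n = 3 each). Solyc03g098000.2, the gene with the highest CPM, lies beside Solyc03g098010.2, whose level was 23.4 ± 1.98 CPM in IL2-6 but 51.9 ± 2.65 CPM in IL3-2 (mean ± SD, n = 3 each). Solyc03g044790.2, at 19.7 ± 1.17 and 2.84 ± 0.320 CPM, lies beside Solyc03g044800.1, at 0.226 ± 0.102 and 11.8 ± 0.511 CPM in IL2-6 and IL3-2 (mean ± SD, n = 3 each).

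The rule was also applied to the other chromosomes, as a description. The background over all rows with at least 1 CPM in IL2-6 and a count in IL3-2 was 3.55%. In the segment 116 of 905 such rows met the ratio (12.8%), and on chromosome 3 outside the segment 15 of 914 did (1.64%). On the other 11 numbered chromosomes the share ran from 1.99% on chromosome 8 to 4.12% on chromosome 1. Turned round, the rule took 177 of 953 segment rows (18.6%), 122 of 970 on the rest of chromosome 3 (12.6%) and 10.1% to 16.3% on the other 11. All these shares use CPM per library total. Over all genes tested, the median log2 ratio, IL3-2 over IL2-6, was 0.17 on that scaling and 0.01 with TMM. With CPM scaled by TMM, 148 segment rows met the rule. The balance of lower and higher shares thus depends on the scaling. No test is given, because the borders of the segment were placed on these differences. Among rows that met the rule, the median ratio was 4.01 in the segment and 2.91 on the 10 chromosomes other than 2 and 3. Ratios of 10 or above made up 32 of 116 rows in the segment (27.6%) and 44 of 428 on those 10 chromosomes (10.3%). Single chromosomes of the 10 ran from 2.94% on chromosome 10 to 18.2% on chromosome 12. Rows not placed on a chromosome were closer to the segment. The rule took 20 of 111 of them (18%), and 5 of those 20 had ratios of 10 or above (25%).

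**Figure D5:**
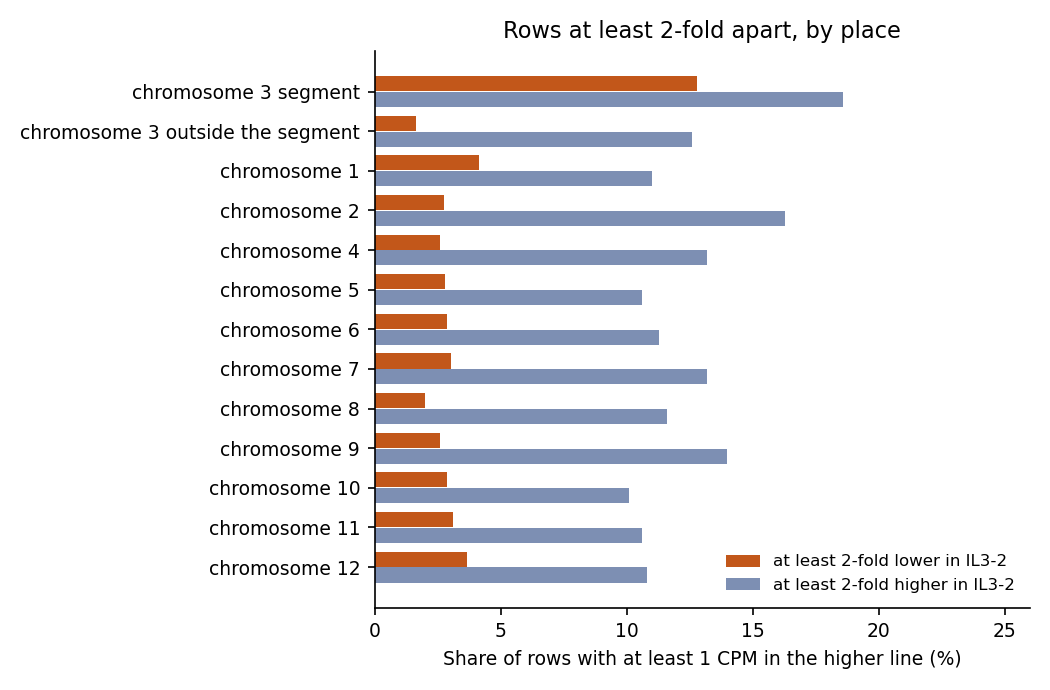
Share of rows (x axis, percent) at least 2-fold lower (orange) or higher (blue) in IL3-2, by place (y axis), among rows with at least 1 CPM in the higher line and a count in the other. Levels are CPM per library total, and the balance of lower and higher rows depends on that scaling. The segment shows 12.8% lower and 18.6% higher, against 1.64% and 12.6% on the rest of chromosome 3. Rows not placed on a chromosome are not drawn.

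The number after the point in an identifier is the version of the gene model. Of the 116 genes, 32 were at version 1 (27.6%) and 84 at version 2 (72.4%), while among all 905 segment rows at the same minimum 155 were at version 1 (17.1%). Version 1 models of the segment met the rule in 20.6% of cases and version 2 models in 11.2%. Outside the segment, the shares were 4.93% of 5439 version 1 rows and 2.13% of 11620 version 2 rows. Among the 116 genes, version 1 models had a median level of 6.06 CPM in IL2-6 and a median ratio of 4.47, and version 2 models had 14.5 CPM and 3.45. Level and version thus moved together, and the part of either in the shares was not tested.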

How the data were processed

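The deposited values for IL2-6 and IL3-2 are raw gene counts, 1 table per library, and for M82 variant records with a quality score, deposited on chromosomes named SL2.50. Tools named in the submitters' processing notes, without roles, include TopHat2 and HTSeq together with CASAVA 1.8.2, SAMtools 1.9, Trimmomatic and edgeR. For the counts, build and annotation are not given in the sources used, and both lines were counted on the same identifiers. How reads of wild alleles mapped was not tested.

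Lines and replicate numbers come from the sample titles. CPM are counts per 1000000 of the raw library total. All genes that passed filterByExpr (20823) were fitted with edgeR's quasi-likelihood test (edgeR 4.0.16, R 4.3.3, TMM, line as the only term), checked on simulated counts. Standard errors are the log2 fold change over the root of F. DESeq2 1.42.0 and limma-voom (limma 3.58.1) were alternatives. The adjusted p limit was 0.05.

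The genes and lists were chosen with earlier results of these data known. Named genes are the 12 highest in IL2-6 CPM, the 10 largest ratios with at least 5 CPM in IL2-6, and 3 on each side of the limit, with further genes named after their values were seen where the text says so, at runs, bins and boundaries, and for the narrowest separation. Groups by function need an annotation and were not formed.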

Additional observations from a re-analysis of the deposited data

How the results depend on the processing

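The count of 116 genes became 207 with a minimum of 1.5-fold and 58 with a minimum of 4-fold, by construction of those limits. It was 148 with TMM-scaled CPM, 149 with DESeq2 size factors, 79 with at least 5 CPM in IL2-6 and 117 with all libraries thinned to the smallest total, of which 111 were among the 116. Leaving out 1 library at a time gave 113 to 120. Genes called lower in IL3-2 over the whole table numbered 6326, and 3977 with scaling by library totals only, 5872 with DESeq2, 6333 with limma-voom, 6698 without a filter and 5749 to 6520 when each library was left out. All 116 genes were called lower in each of these fits, which the choice of genes all but fixed. The 25 named genes inside the limit kept their direction and their call in all 275 alternative values, with adjusted p of at most 4.05e-04. The same choice all but fixed this too. Deviations of equally numbered libraries from their line means had correlations between −0.119 and −0.008, so the replicate numbers were not taken to pair libraries. With a replicate block, 5964 genes were called lower, 5945 of them among the 6326, and all 116. Ratios that rest on 1 to 3 counts in IL3-2 are limited by depth.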

Other observations

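The M82 library lists 48455 variant records, of which 4406 lie on chromosome 3. With a quality of at least 30 and a depth of at least 10 reads, 961 records were left on chromosome 3, and 726 of these were homozygous. The records carry positions and the count tables carry identifiers only, so no record was assigned to any of the 116 genes.

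Of the 32 rows set aside by serial number, 7 also met the ratio. Elsewhere in the genome 515 rows met it, including 20 of 111 rows not placed on a chromosome (18%), with a median ratio of 3.49 among those 20.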
